A study of Mus musculus with 6 samples.

Results

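The genes of the major histocompatibility complex (MHC, the H2 complex of the mouse) and of antigen presentation were examined in whole mouse liver by total RNA sequencing. The members were the protein-coding genes of the deposited count table whose symbol begins with H2-, together with Cd74, Ciita, Nlrc5, B2m, Tap1, Tap2, Tapbp, Psmb8, Psmb9 and Psmb10. They numbered 44 of 43346 genes in the table, of which 34 carried an H2- symbol and 39 lay on chromosome 17 between 33915899 and 37483552 (mm10). By their roles 32 belonged to the class I side, 11 to the class II side, and 1, H2-Ke6, carries the symbol for its position and encodes a steroid dehydrogenase and not an MHC molecule. The first group, S100a11 shRNA (3 libraries, 2, 3 and 2600), received an AAV8 (adeno-associated virus, liver-directed) construct with a short hairpin RNA against S100a11, which encodes a calcium-binding protein, and the labels call its genotype a knockdown. The second group, scrambled shRNA (3 libraries, 28, 30 and 31), is labelled as the control with a scrambled hairpin. All 6 livers came from mice on the FFC diet, used here to induce metabolic dysfunction-associated steatohepatitis, so both groups carry the diet and a hairpin. The labels give no strain, sex, age, hairpin promoter or time after the virus, and do not state that each library is a different animal. The p-values therefore reflect only variation among these samples, which may be technical.

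MHC class I heavy chains pair with beta-2-microglobulin and show peptides from the cell's own proteins to CD8 T cells. The immunoproteasome cuts these peptides, the TAP transporter moves them into the endoplasmic reticulum and tapasin loads them. Class II molecules, pairs of an alpha and a beta chain, show peptides from the endosome to CD4 T cells and are made mainly by dendritic cells, macrophages and B cells, while nearly every nucleated cell, hepatocytes included, makes class I. NLRC5 drives transcription of class I genes and CIITA that of class II genes. CIITA binds no DNA itself and acts through factors on proximal promoter elements called the X and Y boxes.

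The libraries labelled S100a11 shRNA held 53517387 to 69874237 counts and the scrambled libraries 57717111 to 78091845. S100a11 itself stood at 16 CPM (counts scaled by the library total after TMM adjustment) in library 2, 3.55 in library 3 and 3.41 in library 2600, against 15.9, 22.9 and 30.0 CPM in scrambled libraries 28, 30 and 31. Library 2, labelled S100a11 shRNA, therefore overlapped the scrambled group, and the S100a11 change was -1.57 on the log2 scale (edgeR quasi-likelihood adjusted p = 0.095), or -2.75 without library 2. An exact two-sided permutation test of S100a11 gave p = 0.2, where 3 against 3 samples cannot go below 0.1. Liver identity was plain in every library, with Alb, the serum albumin gene, at 18116 CPM or more. Scaling by library totals alone gave a median log2 change of -0.32 over all 19352 tested genes, where TMM gave 0.04.

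The proximal promoters of 2 class II genes, 2 class I genes and H2-M2, the member of largest change, are shown because the 2 sides differed in direction, each as the 250 bases before the start of the transcript, 5′ to 3′ on the gene's strand, from RefSeq (GRCm38.p6). In the 2 class II promoters capitals mark CCAAT or its reverse complement, the core of the Y box, and TGACG or its reverse complement, the core of the X2 box. H2-Aa lies at chr17:34287824-34288073 on the minus strand and H2-Eb1 at chr17:34305617-34305866 on the plus strand.
H2-Aa: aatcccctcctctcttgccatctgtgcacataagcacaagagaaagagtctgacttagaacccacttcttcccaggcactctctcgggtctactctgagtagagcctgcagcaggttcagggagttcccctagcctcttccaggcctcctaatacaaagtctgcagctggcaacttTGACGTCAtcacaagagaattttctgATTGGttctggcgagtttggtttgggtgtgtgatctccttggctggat
H2-Eb1: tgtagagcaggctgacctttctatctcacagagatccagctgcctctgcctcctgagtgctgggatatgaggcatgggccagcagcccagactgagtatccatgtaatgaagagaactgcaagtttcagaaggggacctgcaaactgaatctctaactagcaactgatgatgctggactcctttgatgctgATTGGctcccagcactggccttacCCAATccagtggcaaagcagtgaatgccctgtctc
In the 2 class I promoters below capitals mark AANNGAAA or its reverse complement, the core of an interferon regulatory factor site, and the palindromic kappa B site of class I promoters. H2-K1 lies at chr17:34000348-34000597 on the minus strand and H2-Q10 at chr17:35469839-35470088 on the plus strand.
H2-K1: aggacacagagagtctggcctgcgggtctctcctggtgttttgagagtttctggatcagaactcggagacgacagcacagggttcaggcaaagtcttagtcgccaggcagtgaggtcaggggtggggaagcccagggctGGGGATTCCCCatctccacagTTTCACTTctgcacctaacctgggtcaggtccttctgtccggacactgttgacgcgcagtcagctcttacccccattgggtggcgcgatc
H2-Q10: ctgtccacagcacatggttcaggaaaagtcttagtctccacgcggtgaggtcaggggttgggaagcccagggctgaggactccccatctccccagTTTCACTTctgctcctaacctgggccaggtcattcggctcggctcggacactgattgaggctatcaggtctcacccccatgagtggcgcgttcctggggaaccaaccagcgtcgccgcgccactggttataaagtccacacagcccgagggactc
The promoter of H2-M2, at chr17:37483555-37483804 on the minus strand, has capitals at the Y box core, the X2 core and the interferon regulatory factor core.
H2-M2: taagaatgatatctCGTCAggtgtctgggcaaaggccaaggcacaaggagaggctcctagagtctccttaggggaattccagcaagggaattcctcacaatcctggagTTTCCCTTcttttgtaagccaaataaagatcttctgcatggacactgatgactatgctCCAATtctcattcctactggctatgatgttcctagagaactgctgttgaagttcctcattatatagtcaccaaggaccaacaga

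Promoters were found for 37 of the 44 members, and not for Nlrc5, Ciita, Tap2, H2-Ab1, H2-Q1, H2-T24 and Cd74. The class II counts below therefore leave out Ciita, H2-Ab1 and Cd74, which fell in S100a11 shRNA livers. Both strands were searched, and matches of different motifs could overlap. CCAAT was held by 8 of 8 class II genes and 23 of 28 class I genes, against 33.8% of 32851 promoters in the table. In H2-Aa its reverse complement began 48 bases before the start, downstream of TGACG at 74 bases, and in H2-Eb1 the reverse complement began at 59 and CCAAT itself at 35 bases. In H2-K1 the kappa B letters began 111 bases and the reverse complement of AANNGAAA 90 bases before the start, and in H2-Q10 the reverse complement of AANNGAAA began at 155 bases. TGACG was held by 1 class II gene, H2-Aa, and by 14 class I genes, against 17.8% of all promoters. AANNGAAA was held by 3 class II and 15 class I genes, against 21.3%. The kappa B palindrome was held by 3 class I genes, H2-K1, H2-D1 and H2-Q6, by no class II gene and by 10 promoters in all (0.0304%). TTCNNNGAA, the gamma-activated site, was held by 1 class II gene and 3 class I genes, against 7.02%. These matches describe letters in a window and not bound sites.

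In the S100a11 shRNA group 5 class II members fell, and 4 class I members rose while 1 fell. Of the 44 members 34 passed the filter on low counts and were tested. Among all tested genes 14.1% were called, 8.28% lower and 5.82% higher, at an edgeR adjusted p under 0.05, and of the tested members 6 were called lower and 5 higher. Of 11 class II members 5 fell and 0 rose, with a median log2 change of -0.89. Of 22 tested class I members 4 rose and 1 fell, with a median of 0.22, beside 0.04 over all tested genes. All 11 class II members were lower by sign, against 46.2% of all tested genes. Groups did not overlap for 8 of 11 class II members, all lower in S100a11 shRNA, and for 8 higher and 3 lower of 22 class I members, where 18.1% of all tested genes lay wholly lower, 16.5% wholly higher and 34.7% either way.

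**Figure D1:**
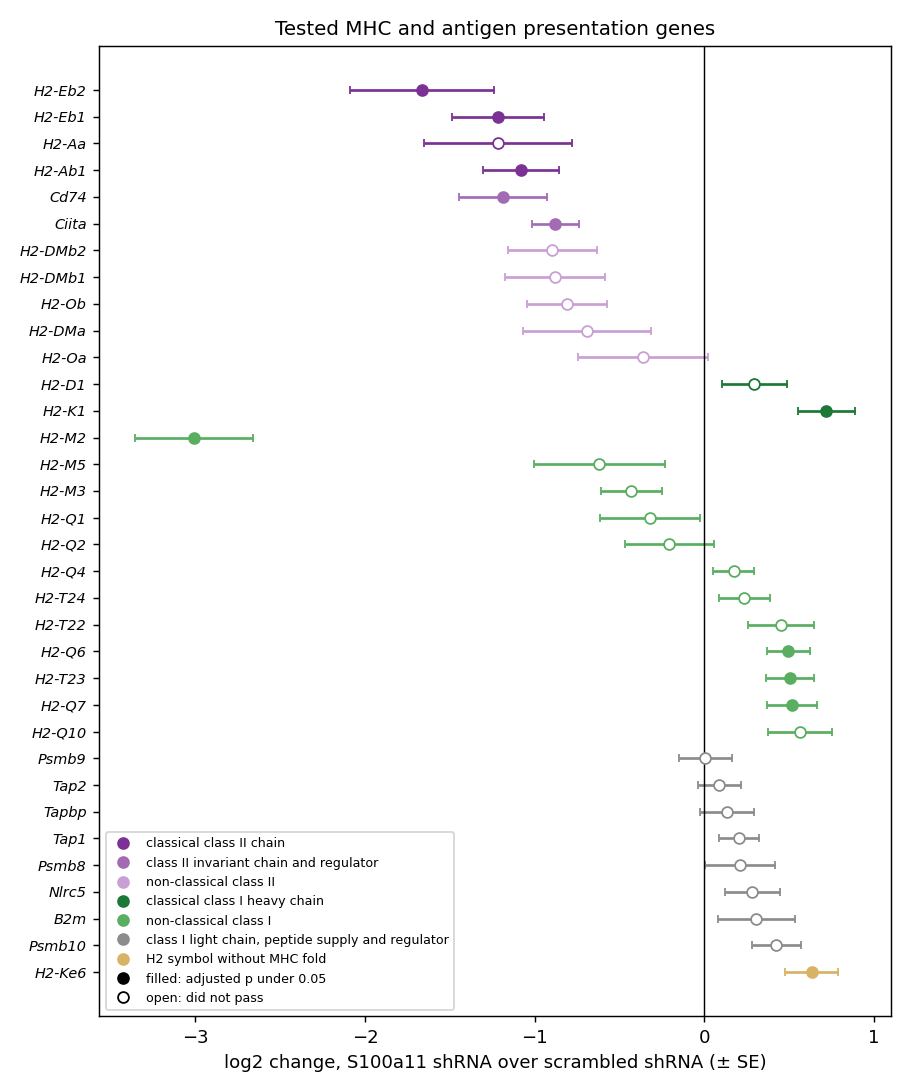
Log2 change (S100a11 shRNA over scrambled shRNA, TMM scaling, edgeR) with its SE for the 34 tested members, grouped by role, with filled points for an adjusted p under 0.05. The 11 class II members (purple, at the top) lie left of 0, from -1.66 to -0.36, and the class I heavy chains and machinery lie mostly right of 0, except H2-M2 at -3.01 and 4 other non-classical genes.

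Of the 4 genes for classical class II chains 3 fell in S100a11 shRNA livers, where 8.28% of all tested genes were called lower. All 4 had log2 changes between -1.66 and -1.08. H2-Ab1, the beta chain of the A molecule, lies on chromosome 17 from 34263209 to 34269418, plus strand. It stood at 87.8, 51.8 and 54.5 CPM in S100a11 shRNA libraries 2, 3 and 2600, against 128, 118 and 164 CPM in scrambled libraries 28, 30 and 31. Every S100a11 shRNA library lay below every scrambled one, and the change was -1.08 ± 0.23 on the log2 scale (SE, edgeR adjusted p = 0.017). H2-Eb1, the beta chain of the E molecule, stood at 80.4, 42.1 and 42.6 CPM, against 112, 112 and 160 CPM in the scrambled libraries. The groups were again apart, with a change of -1.22 ± 0.27 (edgeR adjusted p = 0.022). H2-Aa, the alpha chain that pairs with the product of H2-Ab1, stood at 71.8, 24.3 and 25.8 CPM, against 72.5, 70.4 and 140 CPM in the scrambled libraries. For H2-Aa library 2 lay between the scrambled libraries, so the groups overlapped, and the change of -1.21 ± 0.44 missed the threshold (edgeR adjusted p = 0.0996). H2-Eb2, a second E beta gene read at a very low level, held 17, 7 and 13 counts, against 52, 32 and 72 counts in the scrambled libraries. Its change was -1.66 ± 0.43 (edgeR adjusted p = 0.035).

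The calls for H2-Ab1, H2-Eb1, Cd74 and H2-Eb2 rested on the choice of libraries. H2-Ab1 lost its call without library 3, 2600 or 31 (edgeR adjusted p of 0.052 to 0.070), H2-Eb1 and Cd74 without library 3, 2600, 30 or 31 (0.053 to 0.084), and H2-Eb2 without any library other than 2 (0.052 to 0.12). H2-Aa passed without library 2 (change -1.94, edgeR adjusted p = 0.0023).

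Cd74 and Ciita, the chaperone and the master regulator of the class II pathway, fell with the chains. Cd74 encodes the invariant chain, which occupies the class II groove during assembly, and was the class II member of highest CPM. It stood at 258, 134 and 154 CPM in libraries 2, 3 and 2600, against 379, 356 and 507 CPM in scrambled libraries 28, 30 and 31. The groups did not overlap, and the change was -1.19 ± 0.26 (edgeR adjusted p = 0.021). Ciita lies on chromosome 16 from 10488178 to 10527564, plus strand. It stood at 21.1, 17.01 and 18.8 CPM, against 33.3, 35.6 and 35.8 CPM in the scrambled libraries, with the libraries of each group close together. Its change of -0.88 ± 0.14 had the smallest adjusted p of the class II members (edgeR, 0.0068), and it kept its call without each library in turn (edgeR adjusted p of 0.0017 to 0.040). In the GENCODE M21 annotation Ciita shares 329 bases of exon with Dexi on the opposite strand, 3.45% of its exon bases. The counted Ciita gene has other coordinates, so its exact overlap is not known. The strand setting of the counting is not given in the sources used here. Dexi was higher in every S100a11 shRNA library, at 20.6, 26.1 and 28.8 CPM against 18.2, 14.8 and 16.4 CPM in the scrambled libraries.

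The H2-DM and H2-O genes lay lower by sign, but none of the 5 passed the threshold. H2-DM removes the last fragment of the invariant chain from the class II groove, and H2-O restrains H2-DM. H2-DMb1 stood at 9.0, 4.48 and 4.46 CPM, against 9.96, 9.46 and 13.7 CPM in the scrambled libraries, and H2-DMb2 at 1.30, 1.598 and 0.93 CPM, against 1.99, 2.62 and 2.59 CPM. Both were apart between the groups, with changes of -0.88 ± 0.30 and -0.89 ± 0.26 (edgeR adjusted p = 0.082 and 0.054). These neighbouring beta chain genes resemble each other, and 22.7% of the 50-base words in H2-DMb1 transcripts also occur in H2-DMb2 transcripts, so the division of reads between them is uncertain. H2-Ob stood at 2.17, 1.82 and 1.30 CPM, against 3.31, 3.08 and 2.97 CPM in the scrambled libraries (change -0.81 ± 0.24, edgeR adjusted p = 0.053). H2-DMa, at 8.83, 3.21 and 4.73 CPM against 6.69, 7.65 and 12.8 CPM, overlapped between the groups (change -0.69 ± 0.38, edgeR adjusted p = 0.26). In GENCODE M21 H2-DMa shares 10.44% of its exon bases with Brd2, a gene on the opposite strand at 174 CPM or more in every library. The counted H2-DMa gene has other coordinates than in M21, so its overlap and its count are uncertain. H2-Oa held 12 to 21 counts in S100a11 shRNA libraries and 16 to 36 in scrambled libraries, and its groups overlapped (edgeR adjusted p = 0.58).

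**Figure D2:**
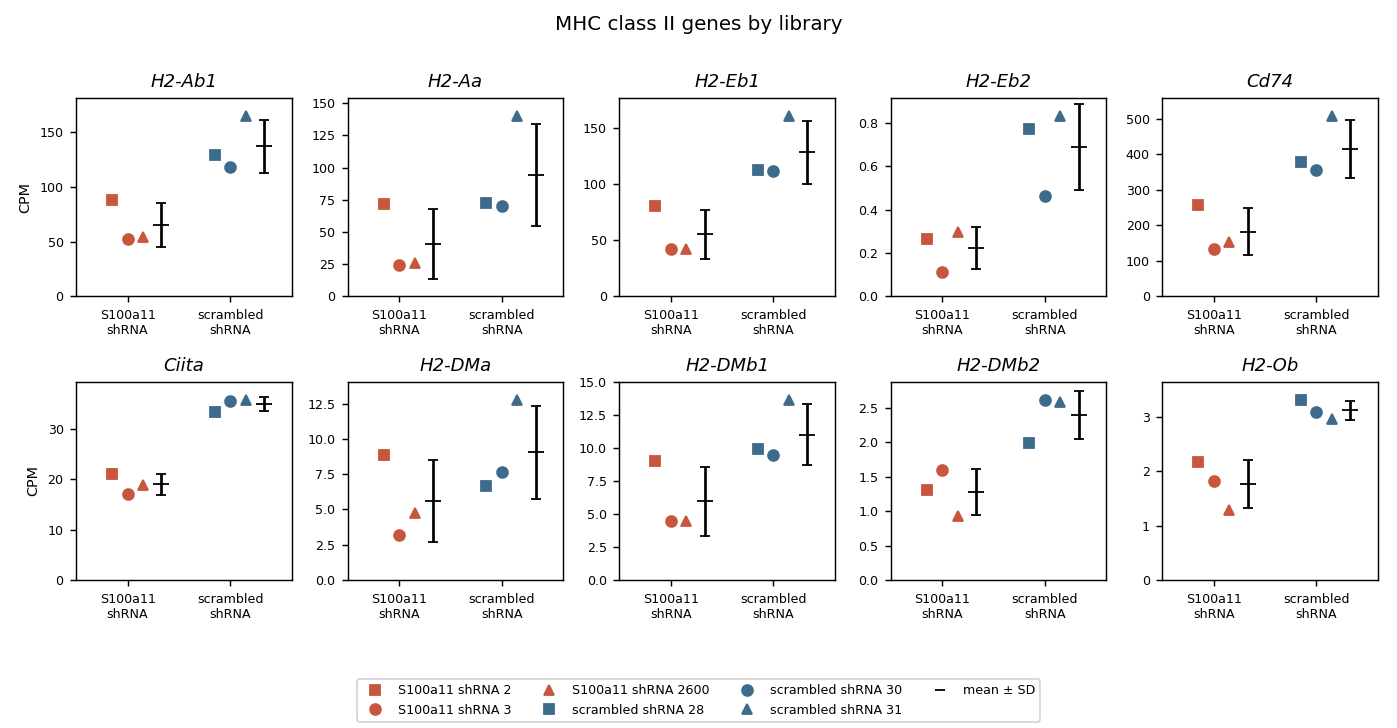
CPM of 10 class II genes in each library, with S100a11 shRNA (red) left of scrambled shRNA (blue), a symbol per library, the mean ± SD beside each group, and a linear axis from 0 that differs between genes. S100a11 shRNA library 2 is the highest of its group for H2-Ab1, H2-Aa, H2-Eb1 and Cd74, while Ciita stays within 17.01 to 21.1 CPM in that group and 33.3 to 35.8 CPM in the scrambled group.

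Most class II genes shared an order of the libraries, which was in part also seen in class I genes. Library 2 was the highest S100a11 shRNA library for 9 of the 11 class II members, and scrambled library 31 was the highest of all libraries for 8. Of 22 tested class I members library 2 was the highest S100a11 shRNA library for 12, and library 31 the highest scrambled library for 14. The share over all genes was not computed. Some proportions between these genes were similar across libraries and others were not. The CPM ratio of Cd74 to H2-Ab1 was 2.94, 2.59 and 2.83 in S100a11 shRNA libraries, against 2.95, 3.01 and 3.09 in scrambled libraries, and that of H2-Ab1 to H2-Eb1 was 1.09, 1.23 and 1.28, against 1.15, 1.06 and 1.02. H2-Ab1 relative to H2-Aa, its partner chain, was at 1.22, 2.13 and 2.11 in S100a11 shRNA libraries, against 1.77, 1.68 and 1.17 in scrambled libraries. The lowest of these ratios were those of library 2 and scrambled library 31. Cd74 relative to Ciita was also variable, at 12.2, 7.89 and 8.17 in S100a11 shRNA libraries, against 11.4, 10.001 and 14.2 in scrambled libraries. Per kilobase of gene length, the scale on which genes can be set beside each other, Cd74 averaged 129 CPM per kilobase in S100a11 shRNA libraries and 294 in scrambled libraries, H2-Eb1 46.5 and 108, H2-Ab1 39.5 and 83.6, H2-Aa 21.7 and 50.3, and Ciita 3.61 and 6.64.

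The count of 5 class II falls depended on which libraries were compared. Leaving out library 2, the library whose S100a11 was at the scrambled level, gave 9 of 11, where 12.0% of all tested genes were called lower. Leaving out library 3 or 2600 gave 1 of 11, with 2.96% and 6.29% of all genes. Leaving out a scrambled library gave 4 for library 28, 2 for library 30 and 1 for library 31, with 5.18%, 2.54% and 3.47% of all genes. The median of the 11 members stayed between -1.34 and -0.85 when each library was left out.

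Cells known to carry class II were read from their markers. Calls in the marker lists stand beside 8.28% of all tested genes called lower and 5.82% called higher. A single call in a list of 6 or 8 markers is close to what these shares give. Summed over the 11 members, class II genes stood at 541, 281 and 307 CPM in libraries 2, 3 and 2600, against 748, 715 and 1040 CPM in scrambled libraries 28, 30 and 31. Of 10 macrophage and monocyte markers 8 fell and 0 rose. Summed, they stood at 195 to 346 CPM in S100a11 shRNA libraries and 503 to 707 CPM in scrambled libraries. Among them Ccr2, the receptor that brings monocytes into tissue, had a change of -1.23 (edgeR adjusted p = 0.017), and Itgam -1.40 (0.0079). Adgre1 and Csf1r did not pass (edgeR adjusted p = 0.41 and 0.14). Relative to the scrambled mean, the marker sum in libraries 2, 3 and 2600 was 0.59, 0.33 and 0.54. The class II sum was 0.65, 0.34 and 0.37, so library 2600 differed between the 2 sums. Of 10 dendritic cell markers 4 fell and 0 rose (88.4 to 94.0 CPM against 127 to 136 CPM in scrambled libraries), including the integrin Itgax at -1.65 (edgeR adjusted p = 0.0035) and the cytokine receptor Flt3 at -0.90 (0.017). Itgax alone averaged 13.4 CPM in S100a11 shRNA libraries against 42.1 CPM in scrambled libraries, so it weighs heavily in the dendritic cell sum. By sign 9 of these markers were lower and 1, Zbtb46, was higher without passing (edgeR change 0.22). Clec9a and Xcr1, which mark cross-presenting dendritic cells, did not pass (edgeR changes of -0.04 and -0.25). Of 6 B cell markers 1 fell, Cd22 (9.57 to 11.8 CPM against 16.1 to 18.8 CPM summed), and no marker of these lists was at 0 throughout. Markers of Kupffer cells, the resident macrophages of the liver, had no common fall. Of these 6 markers 0 fell and 1 rose, Timd4 (change 2.32, edgeR adjusted p = 0.0033), with 4 higher and 2 lower by sign. Of the 4, Clec4f was level (edgeR change 0.0004), and Marco and Cd163 were highest in library 2600, at 20.6 and 27.8 CPM. In library 2 Marco and Cd163 stood at 0.62 and 0.57 CPM, within the range of the scrambled libraries. The sum of the 6 markers was 150 to 411 CPM against 204 to 363 CPM. Of the other lists, T and NK cell markers had 1 fall of 8 (5.35 to 7.25 CPM against 6.91 to 10.7 CPM summed). Liver endothelial markers had 1 fall and 1 rise of 6 (690 to 1035 CPM against 707 to 812 CPM), and cholangiocyte markers 6 falls of 6 (39.8 to 75.7 CPM against 246 to 362 CPM). The cholangiocyte sum is mostly Spp1, which averaged 43.8 CPM in S100a11 shRNA libraries against 258 CPM in scrambled libraries. Ptprc, the leukocyte antigen CD45, changed by -0.62 (edgeR adjusted p = 0.043), and the CPM ratio of Cd74 to Ptprc was 4.04, 2.71 and 2.22 in S100a11 shRNA libraries, against 4.53, 4.05 and 4.62 in scrambled libraries, where library 2 lay just below scrambled library 30. The ratio of H2-Ab1 to Ptprc overlapped between the groups, at 1.37, 1.04 and 0.78 in S100a11 shRNA libraries, against 1.53, 1.34 and 1.49 in scrambled libraries. In bulk liver fewer cells of a type and less RNA per cell cannot be told apart, and the part of these cells in the class II change was not tested.

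**Figure D3:**
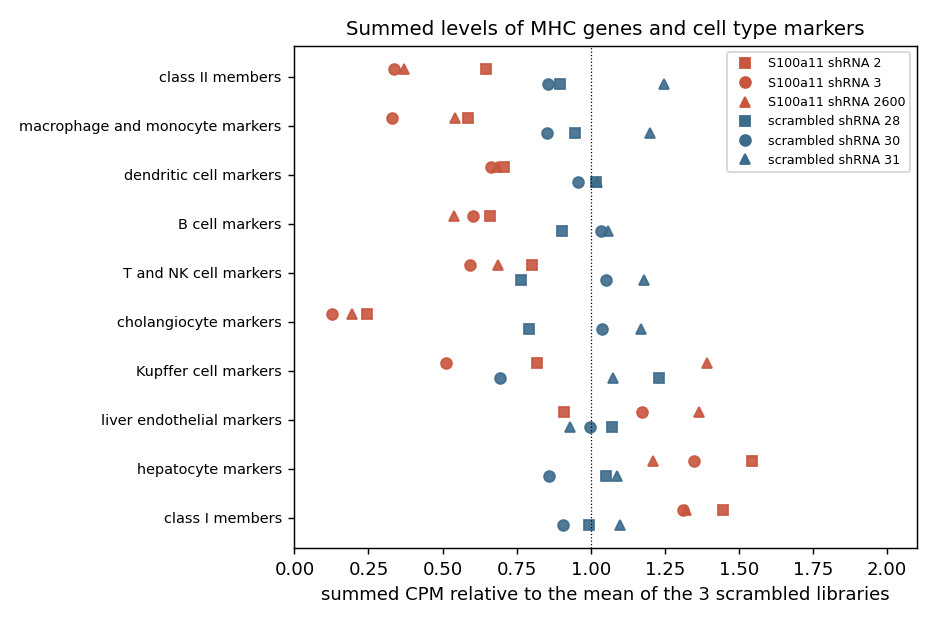
Summed CPM of the class II and class I members and of the marker lists in each library, relative to the mean of the 3 scrambled libraries (dotted line at 1), with S100a11 shRNA libraries (red) above scrambled libraries (blue) in each row. Class II members lie at 0.65, 0.34 and 0.37 in S100a11 shRNA libraries 2, 3 and 2600 and class I members at 1.45, 1.31 and 1.32, while macrophage and monocyte markers lie at 0.59, 0.33 and 0.54 and hepatocyte markers at 1.55, 1.35 and 1.21. The class I sum is led by H2-Q10, B2m and H2-K1. All sums use TMM scaling only, and with library totals alone the median log2 change of class I members was -0.14.

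Of the classical class I heavy chains, H2-K1 rose and H2-D1 did not pass. H2-K1, the heavy chain of the K molecule, lies on chromosome 17 from 33996017 to 34000333, minus strand, and stood at 894, 912 and 1029 CPM in S100a11 shRNA libraries 2, 3 and 2600, against 609, 511 and 601 CPM in scrambled libraries 28, 30 and 31. Each S100a11 shRNA library exceeded each scrambled one, and the change was 0.72 ± 0.17 (SE, edgeR adjusted p = 0.024). With library totals alone it was 0.36 (edgeR adjusted p = 0.11), and the call also ended without any of libraries 3, 2600, 28, 30 and 31 (0.051 to 0.11). H2-D1, the heavy chain of the D molecule, stood at 671, 453 and 604 CPM, against 447, 425 and 535 CPM in the scrambled libraries, so the groups overlapped (change 0.30 ± 0.19, edgeR adjusted p = 0.34, and -0.06 with library totals alone). The light chain B2m stood at 1115, 1111 and 691 CPM, against 748, 699 and 910 CPM, with library 2600 the lowest of the 6 (change 0.31 ± 0.23, edgeR adjusted p = 0.41, and -0.03 with library totals alone). Of 8 hepatocyte markers 2 rose and 0 fell, where 5.82% of all tested genes were called higher and 8.28% lower. These markers had a median log2 change of 0.45 and a summed level of 50351 to 64370 CPM against 35778 to 45384 CPM in scrambled libraries. Both values use TMM scaling only, and the list was not summed with library totals alone. Alb, the marker of highest CPM, weighs heavily in the sum and overlapped between the groups (change 0.26, edgeR adjusted p = 0.73). The part of hepatocytes in the class I values was not tested.

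Of 12 tested non-classical class I genes 3 rose, all in the Q and T regions, and 1 fell, in the M region. Among all tested genes 5.82% were called higher and 8.28% lower, and 1 fall of 12 (8.33%) is near the latter share. H2-Q10, which encodes a secreted class I molecule made by the liver, had the highest CPM of all members, at 1720, 1477 and 1569 CPM against 1079, 953 and 1190 CPM in the scrambled libraries. The groups did not overlap, yet the change of 0.57 ± 0.19 did not pass (edgeR adjusted p = 0.079). H2-T23 encodes Qa-1, which shows class I leader peptides to receptors of natural killer cells, and stood at 191, 217 and 243 CPM, against 161, 144 and 154 CPM in the scrambled libraries. Its change was 0.50 ± 0.14 (edgeR adjusted p = 0.046), close to the threshold, and the call was lost in 13 of 18 alternatives, limma voom (adjusted p = 0.0502) and the robust prior (0.052) among them. H2-Q6 and H2-Q7, genes of the Qa-2 group, rose by 0.50 ± 0.13 and 0.52 ± 0.14 (edgeR adjusted p = 0.035 and 0.046), with 57.0 to 67.7 CPM against 41.5 to 44.6 CPM for H2-Q6 and 70.4 to 82.0 CPM against 46.3 to 61.3 CPM for H2-Q7. The call was lost in 8 of 18 alternatives for H2-Q6 and in 12 for H2-Q7. H2-Q4 was at 84.2, 78.6 and 89.5 CPM, against 76.4, 73.0 and 74.1 CPM, apart between the groups but not past the threshold (change 0.17, edgeR adjusted p = 0.37). H2-T22 shares 29.4% of its exon bases with A930015D03Rik on the opposite strand. H2-Q1, H2-Q2, H2-T22 and H2-T24 overlapped between the groups and did not pass (edgeR changes of -0.32 to 0.45).

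Several Q and T genes resemble each other closely. Of the 50-base words in their annotated transcripts, 32.0% of those of H2-Q6, 26.4% of those of H2-Q7, 34.5% of those of H2-T22 and 19.0% of those of H2-Q10 also occur in another gene, against 9.63% for H2-K1 and 1.61% for H2-M2. How reads that fit several copies were counted is not given, so these single values are uncertain, and class I genes also differ between mouse strains, which the labels do not give. Summed over each region, Q genes stood at 1992, 1714 and 1820 CPM in S100a11 shRNA libraries, against 1277, 1159 and 1415 CPM in scrambled libraries, and T genes at 298, 292 and 328 CPM, against 224, 207 and 229 CPM. These sums use TMM scaling only.

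H2-M2, a class I-like gene of the M region on chromosome 17 from 37480851 to 37483552, minus strand, fell more than any other tested member. It stood at 1.27, 0.58 and 0.70 CPM in S100a11 shRNA libraries 2, 3 and 2600, against 6.35, 5.20 and 9.18 CPM in scrambled libraries 28, 30 and 31, from 31 to 82 counts against 358 to 795. The groups were far apart, with a change of -3.01 ± 0.35 (edgeR adjusted p = 0.0034) that kept its call without each library in turn (-3.48 to -2.75). H2-M3, which presents bacterial peptides that start with formylmethionine, stood at 4.94, 4.83 and 5.62 CPM, against 8.06, 6.16 and 6.49 CPM in the scrambled libraries, apart but not past the threshold (change -0.43 ± 0.18, edgeR adjusted p = 0.15). H2-M5 held 6 to 12 counts, against 15 to 23 counts (edgeR adjusted p = 0.32). The other 9 M genes and H2-T3 were not tested. Of these 10 genes 8 had 0 counts in every library, which allows up to 0.0346 to 0.0682 CPM depending on the library (3 counts each, counting error only), and H2-M11 and H2-T3 held at most 5 counts.

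**Figure D4:**
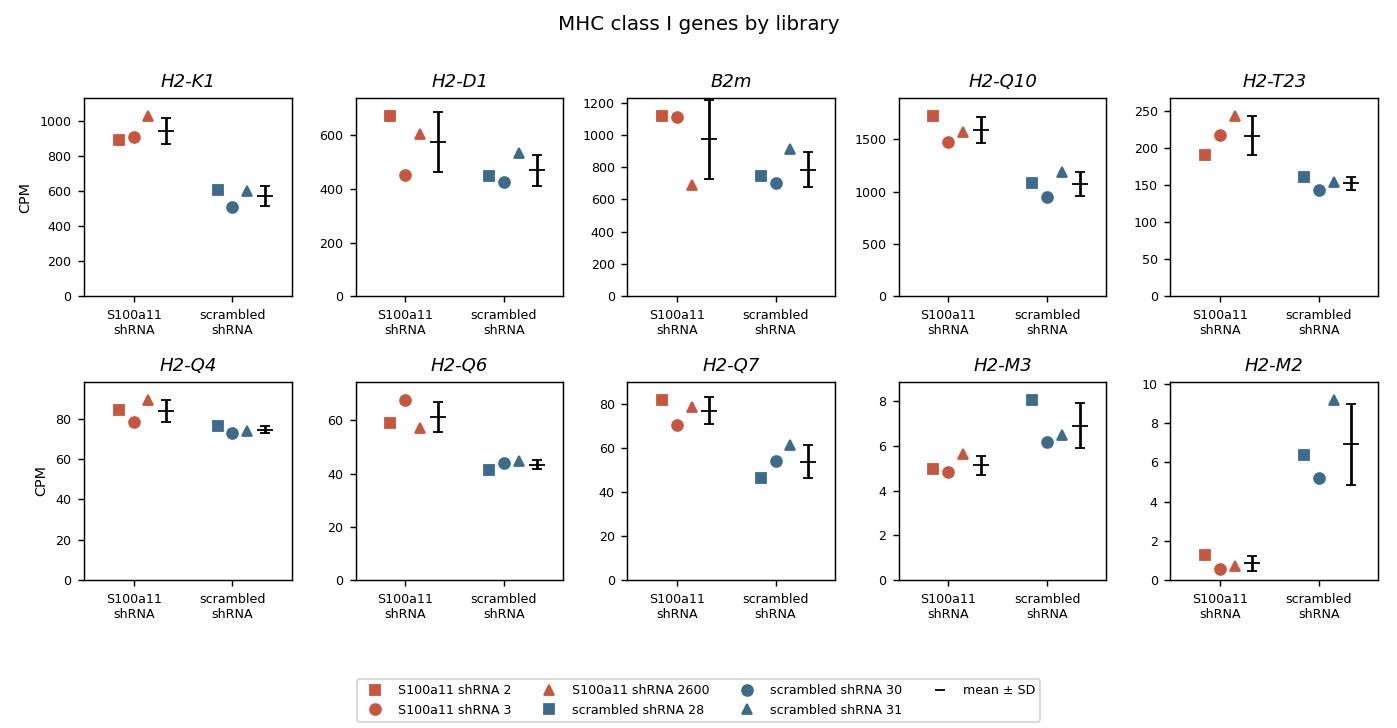
CPM of 10 class I genes in each library, with S100a11 shRNA (red) left of scrambled shRNA (blue), a symbol per library, the mean ± SD beside each group, and a linear axis from 0 that differs between genes. H2-K1, H2-Q10, H2-T23, H2-Q4, H2-Q6 and H2-Q7 are higher in every S100a11 shRNA library, H2-M3 and H2-M2 are lower in every one, and H2-D1 and B2m overlap.

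None of the 8 members that supply, assemble or regulate class I passed the threshold, in either direction. Nlrc5, the class I counterpart of Ciita, stood at 140, 185 and 198 CPM, against 144, 154 and 131 CPM in the scrambled libraries (change 0.28 ± 0.16, edgeR adjusted p = 0.28). The TAP subunits did not pass, with Tap1 at 56.9, 59.7 and 58.4 CPM against 51.9, 47.4 and 52.5 CPM (change 0.21 ± 0.12) and Tap2 at 45.96, 44.2 and 49.0 CPM against 43.0, 40.1 and 47.7 CPM (change 0.09 ± 0.13). Tapbp, the tapasin gene, had a change of 0.13 ± 0.16. In GENCODE M21 24.9% of its exon bases are also exon of Gm19412 on the opposite strand. The counted Tapbp gene has other coordinates, so its own overlap is not known. Among the catalytic immunoproteasome subunits Psmb9 was nearest to 0 (change 0.00 ± 0.16), Psmb8 had 0.21 ± 0.21, and Psmb10, at 29.4, 25.9 and 26.4 CPM against 22.1, 17.4 and 21.4 CPM, had 0.42 ± 0.15 (edgeR adjusted p = 0.086) with no overlap. Set against their constitutive partners, the ratio of Psmb10 to Psmb7 was 0.54, 0.58 and 0.62 in S100a11 shRNA libraries and 0.61, 0.58 and 0.52 in scrambled libraries, and that of Psmb8 to Psmb5 was 0.45, 0.33 and 0.44 against 0.41, 0.45 and 0.49. The ratio of Psmb9 to Psmb6 was 0.23, 0.21 and 0.20 in S100a11 shRNA libraries and 0.22, 0.27 and 0.26 in scrambled libraries. All 3 ratios overlapped between the groups. The signs of B2m, Nlrc5, Tapbp, Psmb8, Psmb9, Tap1, Tap2, H2-D1 and H2-Q4 turned negative with library totals alone, where the median of the class I side was -0.14 and that of all genes -0.32. Relative to all genes the class I median was 0.18 with either scaling. This match was nearly fixed in advance, because a change of scaling moves all genes by about the same amount.

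The count of class I rises depended on the scaling and on the libraries. It was 4 of 22 with TMM, 1 with upper-quartile factors and 0 with library totals alone, where 5.82%, 4.22% and 2.05% of all tested genes were called higher. It was 3 without library 2, with 9.13% of all genes, and 1 without library 2600, with 4.07%. It was 0 without library 3, with 2.16% of all genes, and 0 without scrambled library 28, 30 or 31, with 2.55%, 1.12% and 2.1%. A count of 0 or 1 of 22 is near these shares. Without each library in turn at least 1 of the calls for H2-Q6, H2-Q7 and H2-T23 ended, and each of the 3 ended with library totals alone (changes of 0.14 to 0.16).

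H2-Ke6, which is no MHC molecule, rose by 0.63 ± 0.16 (edgeR adjusted p = 0.030), but 86.4% of its exon bases are also exon of the overlapping gene Gm20427, and the call ended with library totals alone (change 0.27, edgeR adjusted p = 0.20) and without any library other than 2 (0.051 to 0.14).

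Other genes of the pathways gave few calls. Of 37 genes on 3 lists 36 were tested, and 3 fell and 2 rose, which is close to the shares among all genes. The 2 rises were on the list of class I path genes. Cd1d1, the class I-like molecule that shows lipids to natural killer T cells, stood at 252, 325 and 288 CPM, against 166, 132 and 149 CPM in the scrambled libraries, a change of 0.95 ± 0.16 (edgeR adjusted p = 0.0079) that kept its call without each library in turn. Fcgrt, the class I-like neonatal Fc receptor, stood at 156, 140 and 160 CPM, against 103, 92.1 and 108 CPM (change 0.59 ± 0.13, edgeR adjusted p = 0.021, and 0.23 with library totals alone, adjusted p = 0.23). Its call ended without any 1 scrambled library (edgeR adjusted p of 0.061 to 0.11).

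The 3 falls were in the class II and interferon gamma lists. Ctss, cathepsin S, which trims the invariant chain, stood at 67.7, 31.6 and 45.8 CPM, against 96.0, 86.6 and 126 CPM in the scrambled libraries (change -1.09 ± 0.27, edgeR adjusted p = 0.030). Lgmn, the endosomal asparaginyl protease, changed by -0.78 ± 0.21 (edgeR adjusted p = 0.041), and Ifngr1, a chain of the interferon gamma receptor, by -0.66 ± 0.18 (edgeR adjusted p = 0.039). The DNA-binding partners of CIITA did not pass, with changes of -0.29 for Rfx5, -0.29 for Nfya, -0.03 for Rfxap and 0.17 for Rfxank. Ifng, the interferon gamma gene itself, was at 0.12 CPM or less in every library and was not tested. Without library 3, library 2600 or any 1 scrambled library, none of Ctss, Lgmn and Ifngr1 passed (edgeR adjusted p of 0.052 to 0.14), and without library 2 all 3 did.

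Across processing settings the class II and class I medians stayed apart. The median log2 change of the 11 class II members lay between -1.34 and -0.85 in 18 alternatives, and every class II member tested was lower by sign in each. That was 11 members, or 9 with the filter of 1 CPM in 3 libraries, which left H2-Eb2 and H2-Oa untested. The class I median lay between -0.14 and 0.24, and was 0.15 to 0.24 above the median of all tested genes in each. A change of scaling moves all genes by about the same amount. In the alternatives that alter only the scaling, the distances between these medians were therefore nearly fixed in advance and give no support. The robust prior, the threshold of 0.1 and glmTreat alter only p-values or the threshold. Their medians and signs equal the reported ones by construction.

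**Figure D5:**
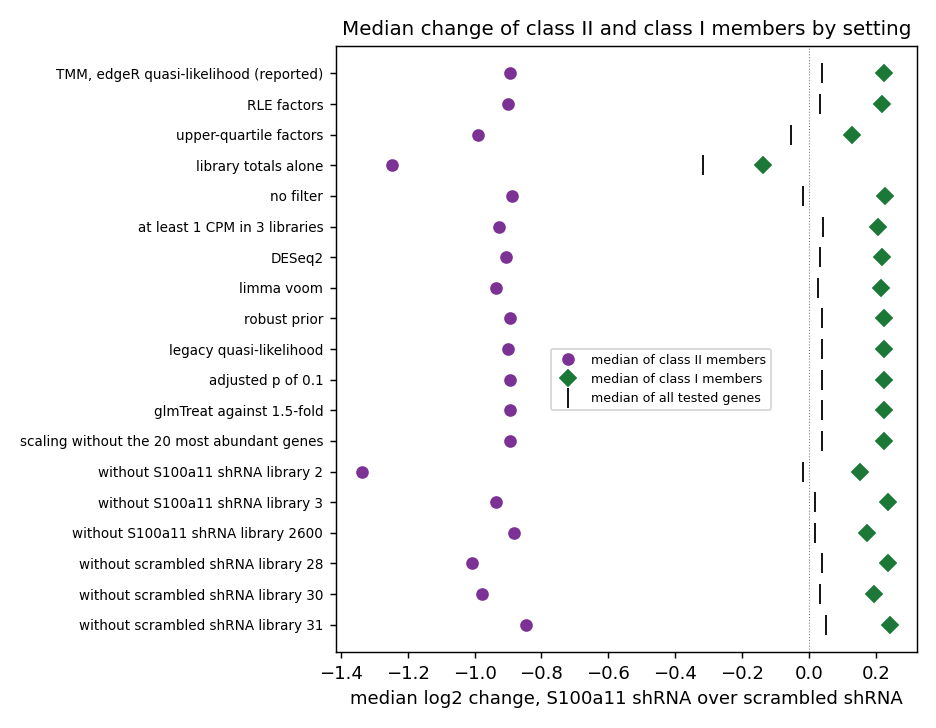
Median log2 change (S100a11 shRNA over scrambled shRNA) of the class II members (purple circles), the class I members (green diamonds) and all tested genes (black ticks) under the reported setting and 18 alternatives, 1 per row. Class II medians lie between -1.34 and -0.85, and class I medians lie right of the tick of all genes in each row.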

How the data were processed

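Whole liver RNA was isolated with Trizol and a column kit and went into a stranded, ribosomal RNA-depleted total RNA kit, per the labels' protocols. The authors deposited raw counts per Ensembl gene for 6 libraries, 3 per group, with 0 columns of other samples. The submitters' processing notes name mm10, while the aligner, the counter, its strand setting and its handling of reads matching several genes were not stated there, in the labels or in the file header. Groups came from the labels.

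Genes passing filterByExpr (minimum count 10, minimum total 15) in edgeR 4.0.16 (R 4.3.3) were scaled with TMM and tested by quasi-likelihood (glmQLFit with legacy = FALSE, glmQLFTest). P-values were adjusted by Benjamini-Hochberg over all 19352 tested genes, with a threshold of 0.05. Scripts were tested on simulated data. SE is the size of the log2 change divided by the root of F. CPM are on the TMM-scaled total, and depth of 53517387 to 78091845 counts per library gives a precision limited mainly by the spread between 3 libraries (common coefficient of variation 0.223). Exon overlaps and shared 50-base words came from GENCODE M21, and promoters from RefSeq (GRCm38.p6). The start and end of 30 of the 44 members matched GENCODE M21, and those of H2-DMa, Ciita and Tapbp did not.

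Members, gene lists and tests were chosen with earlier results of these data known. The text names all members past the threshold, a preset list of chains, regulators and peptide supply genes, the 4 non-classical class I genes of highest level, and other pathway genes past the threshold. Further genes named, among them H2-Q1, H2-Q2, H2-T24, H2-DMb2, H2-M3, H2-M5, Ifng, the partners of CIITA and single markers, were chosen after their values were seen. Alternatives were RLE and upper-quartile factors, library totals, 2 other filters, DESeq2 1.42.0, limma voom 3.58.1, a robust prior, a threshold of 0.1, glmTreat against 1.5-fold, scaling without the 20 most abundant genes and each library left out. The legacy quasi-likelihood fit was added after seeing the data.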

Additional observations from a re-analysis of the deposited data

How the results depend on the processing

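The share of all tested genes called lower was 8.28%, and 20.5% with library totals, 11% with DESeq2, 12.3% with a threshold of 0.1 and 2.27% with glmTreat. The share called higher was 5.82%, and 2.05% with library totals, 4.22% with upper-quartile factors, 3.74% with no filter, 6.38% with the 1 CPM filter, 5.46% with the legacy fit and 0.915% with glmTreat. The counts below are to be read beside these shares. Class II members called lower numbered 5, and 9 with library totals alone, DESeq2 or a threshold of 0.1, 0 with glmTreat against 1.5-fold, and 1 to 9 when each library was left out. Class I members called higher numbered 4, and 0 with library totals or glmTreat, 1 with upper-quartile factors or no filter, 2 with the 1 CPM filter or the legacy fit, and 0 to 3 when each library was left out. Class I members called lower numbered 1, and 2 with library totals, and 1 to 2 when each library was left out. Over all members 6 were called lower, against 11 with library totals, 10 with DESeq2 or a threshold of 0.1, 1 with glmTreat and 2 to 11 when each library was left out. All members called higher numbered 5, against 0 with library totals or glmTreat, 2 with upper-quartile factors or no filter, 3 with the 1 CPM filter or the legacy fit, and 0 to 4 when each library was left out. Other antigen presentation genes called lower numbered 3, against 13 with library totals, 0 with glmTreat and 0 to 7 when each library was left out, and those called higher 2, against 1 with library totals, 0 with glmTreat and 1 to 2 when each library was left out. S100a11 passed with library totals (-1.90), limma voom (-1.89) and a threshold of 0.1 (-1.57), and its log2 change was -2.75 to -1.22 when each library was left out. With library totals the log2 changes turned to -0.035 for B2m, -0.090 for Nlrc5, -0.22 for Tapbp, -0.35 for Psmb9, -0.15 for Tap1, -0.14 for Psmb8, -0.27 for Tap2, -0.060 for H2-D1 and -0.19 for H2-Q4. With upper-quartile factors they turned to -0.088 for Psmb9 and -0.0041 for Tap2, and with the 1 CPM filter to -0.023 for Psmb9. When each library was left out Psmb9 ranged from -0.12 to 0.11, Tapbp from -0.0082 to 0.24 and Psmb8 from -0.0087 to 0.40. Library totals lower all changes together by construction, and the cause of the other moves was not tested. No paired analysis was possible because the groups share no replicate numbers. Depth limits H2-Eb2, H2-Oa and H2-M5, which held at most 72 counts.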

Other observations

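The table also holds 9 H2 genes of other biotypes, all annotated as pseudogenes or polymorphic pseudogenes, of which 5 were tested and 0 passed the threshold (edgeR). H2-K2, the neighbour of H2-K1, stood at 14.8, 24.2 and 34.3 CPM in S100a11 shRNA libraries 2, 3 and 2600, against 14.8, 13.1 and 15.3 CPM in scrambled libraries 28, 30 and 31 (edgeR change 0.76, adjusted p = 0.093). H2-Q5 stood at 21.3, 26.1 and 21.3 CPM, against 15.01, 19.1 and 18.1 CPM in scrambled libraries, without overlap (edgeR change 0.40, adjusted p = 0.13). H2-T10, which shares 31.2% of the 50-base words of H2-T22, was level at 8.97, 7.38 and 9.66 CPM, against 8.34, 9.64 and 7.80 CPM (edgeR change 0.01). H2-Ea-ps, the row for the E alpha chain, held 0 counts in all 6 libraries, while H2-Eb1 was read at 42.1 CPM or more in each.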
